A study of Homo sapiens with 12 samples.

Results

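The RNA contacts of IGF2BP3 in the libraries labelled bio2 were compared with those of IGF2BP1 in HepG2 cells, an established human liver cancer cell line used here as wildtype. Contacts were measured by PAR-CLIP, in which cells take up 4-thiouridine, 365 nm light crosslinks the thio-uridines to bound protein, RNase T1 cuts the RNA after G, and an antibody against the endogenous protein recovers the fragments. The comparison used the 4 libraries of IGF2BP3 bio2 (replicates 1 and 2) and IGF2BP1 (replicates 1 and 2), which held 42669 of the 102250 clusters in the 12 libraries of the series. The other 8 libraries hold IGF2BP2, the methyltransferase METTL1, its partner WDR4, and IGF2BP3 without the bio2 label, called first-batch IGF2BP3 below, with 2 libraries each, and they are used only to show where a value of the pair falls. No library carried a deletion, a transgene or a drug other than 4-thiouridine, and all were made from the same cell line. The protocol seeded plates for each replicate, but the labels do not say whether replicates of one protein were grown or precipitated on separate days, so the spread between them may be technical.

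A cluster is a strand-specific stretch of genome that the PARalyzer caller defined from reads with T-to-C changes, the mark of a crosslinked 4-thiouridine. The bio2 libraries held 6457 and 6009 clusters and the IGF2BP1 libraries 14502 and 15701. Clusters found in both libraries of a side, on the same strand and sharing at least 1 nt, were merged into sites. This gave 4290 bio2 sites and 10603 IGF2BP1 sites, or 53.8% and 54.7% of all merged clusters of the side. The clusters carry no read counts, so the depth is unknown and the absence of a cluster puts no bound on how weakly a place was bound. Without RNA levels the presence of a cluster cannot be told apart from the abundance of its transcript. The bio2 label was given to IGF2BP3 alone, so protein and bio2 label cannot be told apart within this pair, and first-batch IGF2BP3 values are given beside the main ones. Of 15 hepatocyte markers, 9 and 10 carried an exonic cluster for bio2 and 9 and 11 for IGF2BP1. ALB, APOB, FGA, FGB, FGG, SERPINA1, TF and HNF4A were among them in all 4. Of 6 markers of other cell types, none had one.

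IGF2BP proteins are cytoplasmic RNA-binding proteins with RNA recognition motifs followed by KH domains. They bind the coding sequence and 3' UTR of many mRNAs and are known for stabilising or storing them, and they also read methylated bases in mRNA. IGF2BP1 and IGF2BP3 are made in embryonic tissue, are mostly silent in adult tissue including liver, and are made again in many tumours. Their best known RNA motif is CAUH, where H is A, C or U, and KH domains of the family also contact GGC-containing elements.

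The sequences below are examples from the classes of sites. They show the RNA strand in DNA letters of build hg38, 5' to 3', with every CAUH match in capitals. Each class is shown by 3 sites in the coding sequence (CDS) and 3 in the 3' UTR, with wider sites cut to the 30 nt around their middle. Sites were ranked by support from libraries of IGF2BP2, METTL1 and WDR4, then by narrowness, and not by their letters. The bio2 sites shown had support from 0 of those libraries, so width ranked them, in pools of 6 (CDS) and 5 (3' UTR). The IGF2BP1 and shared sites shown had support from 5 or 6. The first 6 are bio2 sites with no cluster in either IGF2BP1 library and a cluster in both first-batch IGF2BP3 libraries.
SLC26A6, an anion exchanger, CDS, chr3:48630475-48630504, minus strand: CATCtcttcccttttCATCctcctCATCat
TMEM131, a transmembrane protein, CDS, chr2:97841831-97841860, minus strand: ctcacctataataaaCATCcacaatcctca
UBR4, a ubiquitin ligase, CDS, chr1:19183847-19183876, minus strand: gctgcagctctctatcacttcaaccactca
TPP1, a lysosomal peptidase, 3' UTR, chr11:6613705-6613734, minus strand: tCATCttttcaccccaccttcaatcaacaa
PHF3, a PHD finger protein, 3' UTR, chr6:63713879-63713908, plus strand: CATCATCccttcttCATAccaacggtccct
CHMP3, an ESCRT-III subunit, 3' UTR, chr2:86504939-86504968, minus strand: ataaccaaCATTcactCATCtgggaCATTc
The next 6 are IGF2BP1 sites with no cluster in any of the 4 IGF2BP3 libraries.
JUND, an AP-1 transcription factor, CDS, chr19:18280808-18280837, minus strand: tgccgaacctgtgcccttcccgccgccgcc
SRRM2, a splicing factor, CDS, chr16:2767357-2767384, plus strand: gtggcaccttcggctgtgaacctggctg
SHB, a signalling adaptor, CDS, chr9:38068165-38068194, minus strand: cctcgtcctcgtcctccggctctccgCATC
CMTM3, a membrane protein, 3' UTR, chr16:66612704-66612725, plus strand: ctggcgttggagcggaggcctg
IGF2, the fetal insulin-like growth factor, 3' UTR, chr11:2130503-2130525, minus strand: taacaggggggcagtgacaaaag
HCFC1, a transcriptional coregulator, 3' UTR, chrX:153948232-153948261, minus strand: atagggtcgagcctaggggagcttgaggga
The last 6 are shared sites with a cluster in all 8 IGF2BP libraries.
SAT1, a polyamine acetyltransferase, CDS, chrX:23785690-23785715, plus strand: caatgaggtgtcgctgcagcagcatg
PHLDA1, a pleckstrin homology-like protein, CDS, chr12:76030653-76030682, minus strand: ccaCATCcaCATCcacactctCATCctcac
APOB, the structural protein of liver lipoproteins, CDS, chr2:21003301-21003330, minus strand: ctccagataaaaaactcacCATAttcaaaa
IGF2, 3' UTR, chr11:2130298-2130320, minus strand: tccggcctggcttctggggacag
RAB5C, an endosomal GTPase, 3' UTR, chr17:42125512-42125539, minus strand: ctcttcccacttcctcccctttctactg
TRIR, a ribonuclease, 3' UTR, chr19:12730725-12730754, minus strand: tcccccccttctcacctcctCATTctctct
CAUH stands in 5 of the 6 bio2 sequences (not UBR4), in 1 of the 6 IGF2BP1 sequences (SHB) and in 3 of the 6 shared ones. Of 6 bio2-only sites picked in the same way without first-batch support, a set added after values were seen, 3 hold it. Of the IGF2BP1-only sites picked in the same way with a cluster in both first-batch libraries, likewise added, SEC61A2 and RFX5 hold it. CADM1, TRIM71, IGF2BP1 and SPRY4 do not. The sets shown thus differ in first-batch support and in support from IGF2BP2, METTL1 and WDR4, as well as in side. Shares over all sites of the classes are given further below.

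To see how far the binding sites of the pair coincide, sites were counted as shared when they touched a site of the other side. Of the bio2 sites, 2250 (52.4%, Wilson 95% interval 51.0 to 53.9) were shared, 422 (9.84%) touched a cluster of only 1 IGF2BP1 library, and 1618 (37.7%) touched none and are called bio2-only below. Of the IGF2BP1 sites, 2260 (21.3%, 20.5 to 22.1) were shared, 1013 (9.55%) touched a cluster of 1 bio2 library, and 7330 (69.1%) are called IGF2BP1-only. The sites of both sides together formed 12537 loci, of which 2154 (17.2%) held both. All intervals cover counting error only. Between single libraries, 70.5% of clusters overlapped within bio2 and 71.0% within IGF2BP1, against 28.6% to 30.2% between the sides, as a share of the clusters of both libraries compared. Bio2 libraries overlapped first-batch IGF2BP3 libraries by 36.2% to 37.0%, and IGF2BP1 libraries overlapped those same libraries by 52.3% to 55.2%. The bio2 libraries thus shared fewer clusters with either set than IGF2BP1 and first-batch IGF2BP3 shared with each other.

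The clusters of the pair lay in different parts of transcripts. In the CDS lay 21.0% and 19.9% of bio2 clusters and 10.9% and 11.9% of IGF2BP1 clusters, means of 20.4% ± 0.80 and 11.4% ± 0.69 (SD, n = 2). In the 3' UTR lay 35.5% of the clusters of each bio2 library, against 42.6% and 42.9% for IGF2BP1. Among clusters in mRNA exons alone, the 3' UTR share was 61.3% and 62.6% for bio2 and 77.7% and 76.5% for IGF2BP1, a difference of -15.1 percentage points. Introns took 15.6% of each bio2 library and 22.3% and 21.8% of the IGF2BP1 libraries. Exons of noncoding transcripts took 8.61% and 8.90% against 5.50% and 5.36%, and the mitochondrial chromosome 2.08% and 2.21% against 1.13% and 0.930%. The 5' UTR took 1.39% and 1.35% against 1.32% and 1.31%, a difference whose sign turned with 1 transcript per gene. The sides did not overlap in any of these shares. First-batch IGF2BP3 lay nearer to IGF2BP1 in the CDS (13.5% and 12.9%), the 3' UTR (41.5% in each library) and introns (21.9% and 21.0%). Its 3' UTR share among clusters in mRNA exons was 74.1% and 74.7%, also nearer to IGF2BP1. On the mitochondrial chromosome it lay nearer to bio2, at 2.30% and 2.34%. With 2 libraries against 2, an exact two-sided permutation test over the 6 divisions cannot go below p = 0.333, and all 43 measures compared in this way reached that value, also after Benjamini-Hochberg adjustment. No difference here can therefore pass 0.05, and each is given with the spread between replicates.

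**Figure D1:**
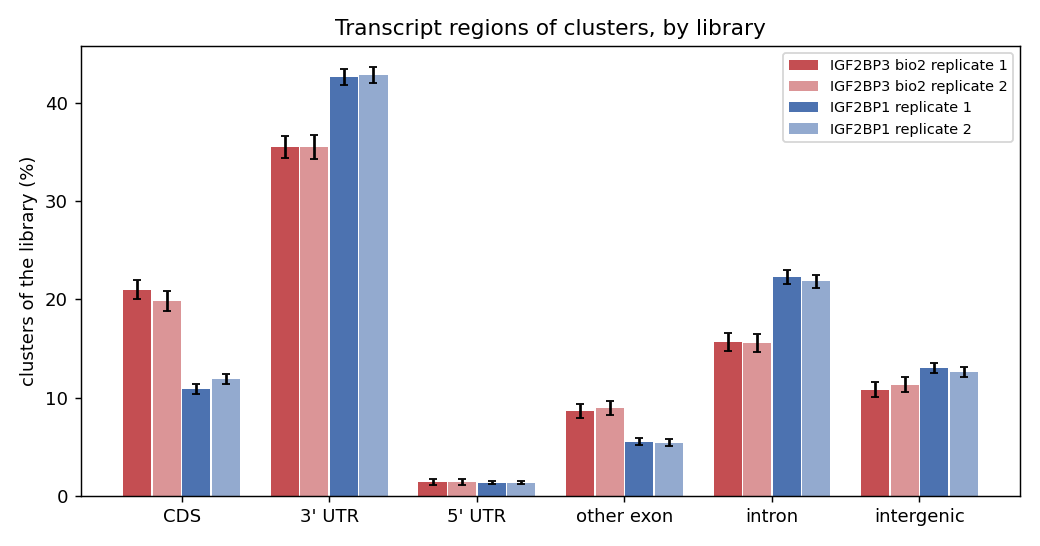
Share of the clusters of a library (percent, vertical axis) in each part of the transcript, 1 bar per library of the pair, with Wilson 95% intervals for counting error as error bars. CDS shares of the bio2 libraries (21.0% and 19.9%) lie above those of IGF2BP1 (10.9% and 11.9%), and the 3' UTR and intron shares lie below.

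The libraries also differed in the form of their clusters. The median width was 34 and 35 nt in the bio2 libraries, 42 and 40 nt in the IGF2BP1 libraries and 41 nt in both first-batch IGF2BP3 libraries. Clusters of 17 nt or less made up 2.14% and 1.83% of bio2 and 0.317% and 0.306% of IGF2BP1. A G, after which RNase T1 cuts, stood just before 89.0% and 88.7% of bio2 clusters and 93.3% and 93.8% of IGF2BP1 clusters. The central 20 nt occurred once in the genome for 69.6% and 68.7% of bio2 clusters and for 58.4% and 62.1% of IGF2BP1 clusters. Among such single-copy clusters the CDS held 25.7% and 24.9% of bio2 and 16.0% and 16.7% of IGF2BP1, so the difference there was as large. Whether cluster width plays a part in the other differences was not tested beyond the restrictions to wide clusters given in the closing section.

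Within the transcript regions the positions shifted less. The median cluster in the CDS lay at 0.53 of its length from the start codon in both bio2 libraries and at 0.57 and 0.56 in the IGF2BP1 libraries. In the 3' UTR it lay at 0.40 of the length in both bio2 libraries and at 0.43 in both IGF2BP1 libraries. The first 100 nt after the stop codon held 8.27% (182 of 2200) and 8.26% (169 of 2046) of the 3' UTR clusters of bio2, against 4.60% (272 of 5915) and 4.97% (319 of 6419) for IGF2BP1. First-batch IGF2BP3 had 5.70% and 5.42% there. The 3' UTRs that carried clusters were shorter for bio2, with medians over clusters of 2862 and 2842 nt against 3419 and 3417 nt, and a given stretch is a larger part of a shorter UTR. How much of the difference near the stop codon goes with UTR length was not tested.

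Shared and one-sided sites lay in different regions. The shared bio2 sites were 47.4% 3' UTR (1067 sites) and 19% CDS (427). Among bio2-only sites the 3' UTR fell to 21.6% (349), while the CDS took 20.6% (334), intergenic sequence 20.6% (334), introns 17.3% (280) and noncoding exons 13.4% (217). IGF2BP1-only sites were 44.7% 3' UTR (3274), 23.3% intron (1710), 13.7% intergenic (1006) and 8.87% CDS (650). The bio2-only intergenic sites differed in form from the shared sites. Their median width was 26 nt, 35.6% were 20 nt or shorter, 56.6% had a G just before them, and 35.9% held CAUH. Shared bio2 sites in intergenic sequence (125) had 41 nt, 1.6%, 84.8% and 60.8%. Over all shared bio2 sites those values were 39 nt, 0.578%, 94.5% and 69.7%. The bio2-only intron sites went part of the same way, with 18.2% of 20 nt or shorter and a G before 76.8%. The bio2-only sites in CDS and 3' UTR were like the shared ones in the preceding G, at 97.0% and 98.3%.

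Libraries that took no part in choosing the sites showed how far each class recurs. A cluster in first-batch IGF2BP3 replicate 1 or 2 touched 86.7% of shared bio2 sites (80.1% in replicate 1, 81.2% in replicate 2). The same libraries touched 4.64% of bio2-only sites (75 of 1618, Wilson 95% interval 3.71 to 5.77), with 2.84% and 3.09% in the single replicates. With the bio2 sites that touched 1 IGF2BP1 library included, the share was 10.4% (213 of 2040), and it was 6.43% when IGF2BP1 replicate 1 was left out. They touched 51.3% of IGF2BP1-only sites (3759 of 7330), with 39.6% and 42.5% in the single replicates, and 54.2% of all IGF2BP1 sites not shared. Sites of IGF2BP1 without bio2 IGF2BP3 thus recurred in first-batch IGF2BP3 more often than sites of bio2 IGF2BP3 without IGF2BP1 did. The bio2-only class excludes every site touched by an IGF2BP1 library, and IGF2BP1 libraries overlapped first-batch IGF2BP3 libraries by 52.3% to 55.2%. How much of the low share goes with that rule was not tested. The order is the same in both replicates. It held in the CDS, with 5.69% (19 of 334) of bio2-only and 48.8% of IGF2BP1-only sites, and in the 3' UTR, with 6.02% (21 of 349) and 48.8%.

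The other proteins gave the same order. IGF2BP2 replicates 1 and 2 touched 41.8% and 50.4% of shared bio2 sites, 1.30% and 1.73% of bio2-only sites and 29.0% and 39.3% of IGF2BP1-only sites. METTL1 touched 27% and 29.9%, 2.35% and 3.77%, and 16.0% and 19.7% of these classes. WDR4 touched 34.8% and 30.9%, 3.58% and 3.03%, and 21.3% and 18.9%. At bio2-only sites the first-batch IGF2BP3 shares (2.84% and 3.09%) lay within the range of the METTL1 and WDR4 shares, 2.35% to 3.77%. IGF2BP1-only sites, and the libraries of all of these proteins, carry no bio2 label, so recurrence and the lack of that label cannot be told apart.

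**Figure D2:**
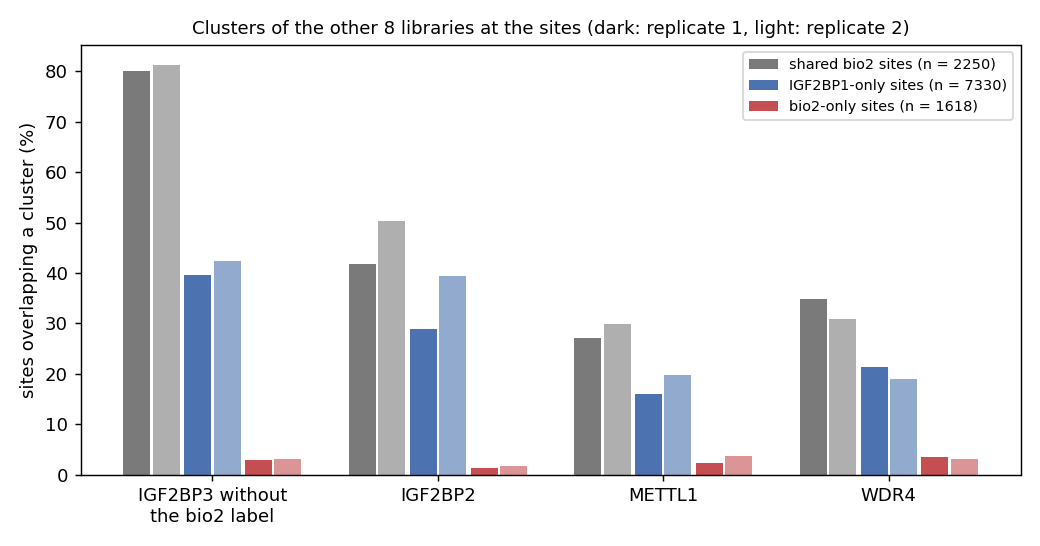
Percent of sites (vertical axis) touched by a cluster of each library not used to define the sites, for shared bio2, IGF2BP1-only and bio2-only sites, 1 bar per library (dark for replicate 1, light for replicate 2). First-batch IGF2BP3 touches 80.1% and 81.2% of shared sites, 2.84% and 3.09% of bio2-only sites and 39.6% and 42.5% of IGF2BP1-only sites.

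Small nucleolar RNAs carried more clusters in the bio2 libraries than in any other library. Small nucleolar RNAs guide chemical modification of ribosomal and spliceosomal RNA in the nucleus. The C/D box class (SNORD) directs ribose methylation, the H/ACA class (SNORA) directs pseudouridylation, and scaRNAs do so in Cajal bodies. Exons of these genes held 123 clusters (1.90%, Wilson 95% interval 1.60 to 2.27) and 126 clusters (2.10%, 1.76 to 2.49) in the bio2 libraries, against 3 (0.0207%) and 3 (0.0191%) in the IGF2BP1 libraries. First-batch IGF2BP3 had 0 clusters there in both libraries, which by a limit of 3 counts allows shares of up to 0.0464% and 0.0439%. IGF2BP2 had 8 and 3, METTL1 8 and 11, and WDR4 6 and 3, so the bio2 counts lay above those of all 10 other libraries.

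The snoRNA clusters formed 93 bio2 sites in 82 genes, of which 66 were SNORD, 12 SNORA and 2 SCARNA genes. Of the 93, 92 were bio2-only, and 73.9% of these were single-copy. The genes include several members each of the SNORD116 and SNORD3 families. Reads with a few genomic matches were kept, so the counts of snoRNA sites and genes are uncertain for repeated members. IGF2BP1 had 2 sites, in SCARNA10 and SNORD100, genes that also had a bio2 site. The bio2 sites had a median width of 36 nt and covered a median of 35.7% of a gene, and 7 sites covered 80% or more. CAUH stood in 37.0% of the 92, below the share in mRNA sites. The stretches below are those of 2 wide sites, shown because they cover most of a C/D snoRNA. Capitals mark TGATGA, the C box letters, and CTGA, the D box letters, wherever they occur, and TGATGA occurs in SNORD58A but not in the SNORD45A stretch.
SNORD45A, chr1:75787892-75787971, plus strand: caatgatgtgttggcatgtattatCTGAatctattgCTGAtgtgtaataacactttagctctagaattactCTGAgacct
SNORD58A, chr18:49491271-49491347, minus strand: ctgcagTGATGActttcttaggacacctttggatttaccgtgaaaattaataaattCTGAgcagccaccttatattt
Of the 71 bio2 sites in SNORD genes, 36 held TGATGA and 39 held CTGA in the site itself. The letters describe the RNA and are no binding motif of the protein.

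**Figure D3:**
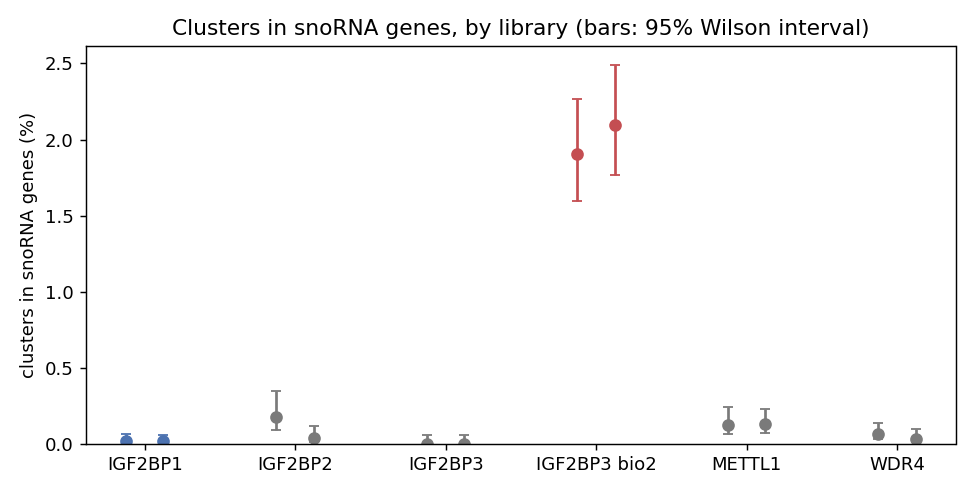
Share of clusters (percent, vertical axis) in snoRNA and scaRNA exons for each of the 12 libraries, 1 point per library with its Wilson 95% interval, which covers counting error only. The bio2 libraries stand at 1.90% and 2.10%, with 3 clusters in each IGF2BP1 library and 0 in each first-batch IGF2BP3 library.

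Other structured RNAs followed in part. By RefSeq annotation on either strand, tRNA genes held 15 and 20 bio2 clusters and 2 and 1 IGF2BP1 clusters, with 0 in both first-batch IGF2BP3 libraries. METTL1, a tRNA methyltransferase, had 22 and 33 there, its partner WDR4 12 and 10, and IGF2BP2 0 and 1. Spliceosomal snRNA genes held 22 and 23 bio2 clusters and 1 and 2 IGF2BP1 clusters, with 0 in both first-batch libraries, 2 and 1 in IGF2BP2, 7 and 7 in METTL1 and 8 and 7 in WDR4. Ribosomal RNA genes held 2.46% and 2.50% of bio2 clusters and 1.20% of each IGF2BP1 library. That share was not particular to bio2, with 3.11% and 2.65% in METTL1 and 2.75% and 1.85% in IGF2BP2. WDR4 had 2.00% and 1.83%, and first-batch IGF2BP3 1.39% and 1.33%. MicroRNA genes held 4 and 4 bio2 clusters (0.0619% and 0.0666%) and 11 and 13 IGF2BP1 clusters (0.0759% and 0.0828%), with overlapping Wilson intervals. Counting only sites whose midpoint lay in no mRNA exon, the noncoding exon part of the bio2-only sites was 85 snoRNA or scaRNA, 51 pseudogene, 47 lncRNA and 10 snRNA sites of 217. That of the IGF2BP1-only sites was 204 lncRNA, 58 pseudogene and 1 snoRNA of 387. The abundance of small RNA in each lysate and precipitate was not measured here, and its part in these counts was not tested.

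The sequence of the mRNA sites differed as well. CAUH was counted in windows of 41 nt centred on each cluster, with windows 100 nt to either side as the background. In the CDS it stood in 75.0% and 75.9% of bio2 windows and 59.3% and 60.6% of IGF2BP1 windows. In the 3' UTR it stood in 74.3% and 75.7% against 50.4% and 52.1%, a difference of 23.7 percentage points, while the flanks held it in 40.1% and 39.9% against 36.5% and 37.1%. First-batch IGF2BP3 lay between the sides, at 70.5% and 70.0% in the CDS and 63.5% and 61.9% in the 3' UTR. Over all windows, first-batch IGF2BP3 (66.1% and 64.1%) was closer to bio2 (66.5% and 67.0%) than to IGF2BP1 (51.0% and 53.9%). In the 3' UTR it lay about midway between the sides.

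By class of site, CAUH did not separate shared from bio2-only sites in the CDS or the 3' UTR. Over all regions CAUH stood in 69.7% of shared bio2 and 60.1% of bio2-only sites. In the 3' UTR it stood in 76.4% of shared bio2, 77.1% of bio2-only and 43.6% of IGF2BP1-only sites. In the CDS it stood in 77.3%, 77.8% and 51.1%. The shared sites of IGF2BP1 held it in 75.2% (3' UTR) and 78.6% (CDS). Shared sites of the sides are largely the same places, so the likeness of these values to those of shared bio2 sites follows from the rule. Around the cluster centre, in CDS and 3' UTR clusters, CAUH began at 4.74% and 4.95% of positions in the first 10 nt downstream in bio2, 2.41% and 2.61% in IGF2BP1 and 3.31% and 3.19% in first-batch IGF2BP3. In the 10 nt upstream the values were 4.17% and 4.18%, 2.44% and 2.53%, and 3.44% and 3.30%. All libraries peaked at the centre, and the peak was highest in bio2.

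**Figure D4:**
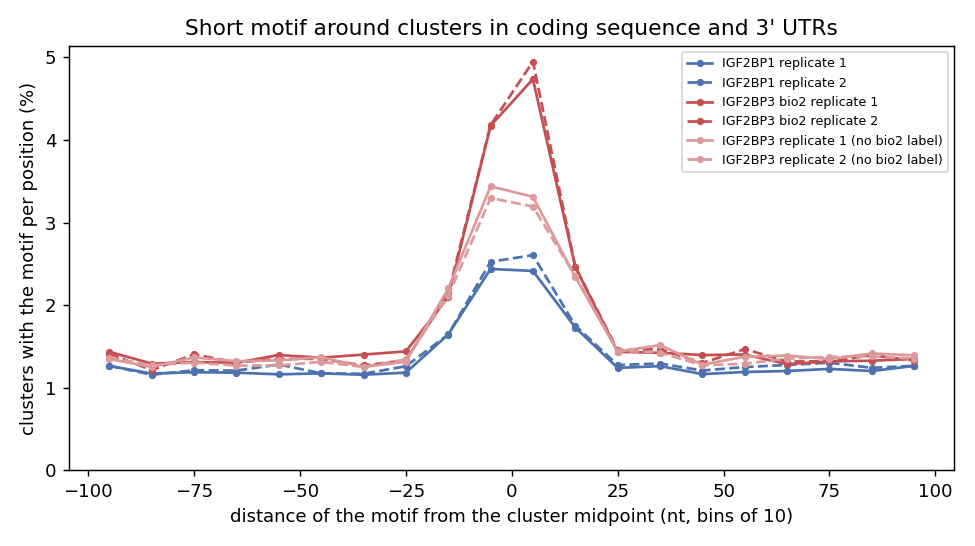
Percent of positions at which CAUH begins (vertical axis) against distance from the cluster centre in nt (horizontal axis), for CDS and 3' UTR clusters in bins of 10 nt, 1 line per library. The bio2 lines peak at 4.74% and 4.95%, the IGF2BP1 lines at 2.44% and 2.61%, and first-batch IGF2BP3 lies between.

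Among all 256 words of 4 letters, the sides did not overlap for 219 words over all windows (85.5%, 145 higher and 74 lower in bio2), for 231 words in the 3' UTR (90.2%, 80 higher and 151 lower) and for 208 words in the CDS (81.2%, 115 higher and 93 lower). A word whose libraries do not overlap is thus the rule here, and the size of the difference is what sets words apart. UCAU differed most upwards in all 3 sets. In the 3' UTR it stood in 42.7% and 44.4% of bio2 windows, 23.6% and 24.7% of IGF2BP1 windows and 30.7% and 30.2% of first-batch IGF2BP3 windows. CAUU, UUCA and UUUC followed there, higher in bio2 by 17.8, 15.2 and 15.0 percentage points. In the CDS, UCAU was followed by AUCA (15.0), CAUC (13.4) and UUCA (11.6). Most of these words overlap CAUH or one another and are not separate observations.

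Named words that were lower in bio2 differed in where first-batch IGF2BP3 lay. The G-containing words GCCU, GGCU and GGCA of the 3' UTR were lower in both sets of IGF2BP3 libraries than in IGF2BP1. GCCU stood in 9.86% and 8.81% of bio2, 20.9% and 19.2% of IGF2BP1 and 12.7% and 14.9% of first-batch windows. GGCU stood in 6.11% and 6.0%, 16.6% and 15.2%, and 10.6% and 11.7%. GGCA, a word of the elements bound by KH domains, stood in 4.54% and 4.17%, 9.80% and 9.06%, and 6.59% and 6.48%. The base G made up 8.93% and 8.70% of letters in the 3' UTR windows of bio2, 13.5% and 12.6% in IGF2BP1 and 9.21% and 9.56% in first-batch IGF2BP3. A bipartite element, GGCA or CGGC followed at a set distance by CA, stood in 4.34% and 4.39% of bio2 and 5.42% and 4.87% of IGF2BP1 windows over all regions. These values lie below those of the flanks (6.40% and 6.26%, and 6.72% and 6.60%), and the direction turned among single-copy clusters.

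The pyrimidine words CUCU and CUCC were lower in bio2 than in both of these sets, while UUUC was higher in bio2 than in either (35.2% and 34.5%, against 25.8% and 28.0% in IGF2BP1 and 30.1% and 29.4% in first-batch windows). Over all windows, CUCU stood in 39.8% and 38.8% of bio2, 49.8% and 51.6% of IGF2BP1 and 52.6% and 52.4% of first-batch windows. CUCC stood in 34.5% and 34.4%, 46.1% and 46.7%, and 46.6% and 47.0%. For CUCU and CUCC first-batch IGF2BP3 lay with IGF2BP1 or above it. By class of 3' UTR site, CUCU stood in 52.9% of shared bio2, 26.1% of bio2-only and 50.6% of IGF2BP1-only sites, so bio2-only sites kept CAUH and had less CUCU. Each of these is a description of letters, and a word in a window is no proof of contact.

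At the level of genes, 1767 nuclear protein-coding genes had an exonic bio2 site and 3075 an IGF2BP1 site, 3494 in all. Sites of both sides were present in 1348 genes, 76.3% of the bio2 genes and 43.8% of the IGF2BP1 genes. Of the 3494, 419 (12%) were bio2-only and 1727 (49.4%) IGF2BP1-only. Genes were shared more fully than sites, yet 217 of the 1348 genes (16.1%) had sites of both sides and no shared site. Within the 1348 genes, 1522 of 2040 bio2 sites (74.6%) were shared sites, against 3438 IGF2BP1 sites in the same genes. There were more bio2 sites in 78 genes, more IGF2BP1 sites in 642 and equal numbers in 628. The CDS held 30.5% (622) of the bio2 sites and 22.8% (784) of the IGF2BP1 sites in these genes. The difference in region was thus smaller but present with sites pooled over the same set of genes. Regions were not compared gene by gene, and genes with many sites weigh more in these shares.

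One-sided genes mostly rested on few sites. Of the bio2-only genes, 377 (90.0%) had 1 site, and 220 (52.5%) had a CDS site. Of the IGF2BP1-only genes, 1148 (66.5%) had 1 site, and 401 (23.2%) had a CDS site. The median 3' UTR was 1419 nt for bio2-only genes, 2380 nt for IGF2BP1-only genes and 2407 nt for genes with both. An exonic cluster in at least 1 IGF2BP1 library was present in 191 (45.6%) of the bio2-only genes, so these genes missed the site rule for IGF2BP1 and did not lack its clusters, and 510 (29.5%) of the IGF2BP1-only genes had a bio2 cluster. First-batch IGF2BP3 had a cluster in 78 (18.6%) of the bio2-only genes, 1149 (66.5%) of the IGF2BP1-only genes and 1213 (90.0%) of the genes with both. Genes thus repeated the order seen for sites.

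The genes with the most sites were bound by both. APOB had 36 bio2 and 39 IGF2BP1 sites, of which 35 and 37 were in its CDS, and 24 of the bio2 sites were shared. IGF2, the namesake target of the family, had 13 and 32 sites, and all 13 bio2 sites were shared. Its exonic clusters numbered 17 and 19 in bio2, 37 and 36 in IGF2BP1 and 33 and 31 in first-batch IGF2BP3. The IGF2BP1 sites lay in the 3' UTR (24) and 5' UTR (7), those of bio2 likewise (10 and 3). PEG10, an imprinted retrotransposon-derived gene, had 15 and 18 sites. MBNL3, a splicing regulator, had 8 and 17, NFAT5, the osmotic stress transcription factor, 5 and 18, and LPP, a focal adhesion protein, 7 and 15. HIPK2, a nuclear kinase, had 3 and 17, and LCOR, a nuclear receptor corepressor, 5 and 14.

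A few genes carried more bio2 sites, although the bio2 libraries held fewer clusters. MAN1A1, a mannosidase of the Golgi, had 10 bio2 and 4 IGF2BP1 sites, with 11 and 10 bio2 clusters, 4 and 7 IGF2BP1 clusters and 2 and 4 first-batch clusters. FGA, the fibrinogen alpha chain, had 6 and 2 sites. TFRC, the transferrin receptor, whose 3' UTR carries iron-responsive elements, had 5 and 1, with 6 and 5 bio2 clusters, 1 and 3 IGF2BP1 clusters and 0 in both first-batch libraries. CERS6, a ceramide synthase, had 4 and 1. FN1, fibronectin, had 10 and 7, with 9 and 5 in the CDS. FTL, the ferritin light chain, had 3 and 1 CDS sites, and TF, transferrin, 2 and 0. In the other direction MFSD4B, a membrane transporter, had 1 and 16 sites, and PTCHD4, a patched-domain protein, 2 and 13. CDS sites were more numerous for IGF2BP1 in QSER1 (2 and 10), FASN, the fatty acid synthase (1 and 7), KMT2D, a histone methyltransferase (1 and 7), SRCAP, a chromatin remodeller (2 and 8), and ZFHX3, a homeodomain protein (0 and 5).

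The bio2-only genes with the most sites had 3 or fewer. CD58, an adhesion ligand of T cells and natural killer cells, had 3 bio2 sites in its CDS, 3 clusters in each bio2 library and none in the other 10 libraries. CIPC, a circadian repressor, had 3 in its 3' UTR, with 2 and 1 IGF2BP1 clusters that missed the site rule. AGT, the precursor of angiotensin, ANKRD12 and ANP32A had 2 each. ACTB, the classical target of IGF2BP1 in neurons and fibroblasts, had 2 bio2 CDS sites, 3 clusters in each bio2 library and 0 and 1 in the IGF2BP1 libraries. Neither ACTB site was single-copy, so reads from actin pseudogenes or paralogs could be split among them.

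The IGF2BP1-only genes with the most sites carried them mostly in the 3' UTR. RPS29, a ribosomal protein, had 15 sites (4 single-copy). The 3' UTR length taken for RPS29 was 93 nt, too short for 15 separate sites, so some lie in 3' UTRs of other annotated transcripts. GNL3L, a nucleolar GTPase, had 12 (2 single-copy), and MAVS, an antiviral adaptor, 12 (5 single-copy). MPV17L had 11 (2 single-copy), XIAP, an apoptosis inhibitor, 11 (3 single-copy), and ZNF652 11 (8 single-copy). UBXN2A had 9 (4 single-copy). Most of these sites lay in repeated sequence and are uncertain in their placement. The mRNA of IGF2BP1 itself had 9 sites, all single-copy and all in its 3' UTR. Its clusters numbered 13 and 10 in IGF2BP1, 6 and 3 in first-batch IGF2BP3, 7 and 7 in IGF2BP2 and 0 and 0 in bio2. The bio2 libraries were the only ones of the 12 without a cluster on it.

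Other known targets and family members were as follows. HMGA2, an oncofetal chromatin protein and let-7 target, had 5 bio2 and 12 IGF2BP1 sites, and all 5 were shared. IGF2BP2 had 1 and 3, CTNNB1, beta-catenin, 2 and 1, and LIN28B, the let-7 inhibitor, 0 and 1. The noncoding H19 transcript had 1 exonic cluster in each bio2 library and 0 in both IGF2BP1 libraries. IGF2BP3 and CD44, a hyaluronan receptor, had none in any library.

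By gene function, lists are described by counts of genes with a site, beside the 38.6% with both, 12% bio2-only and 49.4% IGF2BP1-only over all 3494 genes. Secreted plasma proteins had 30 genes, 17 with both, 7 (23.3%) bio2-only and 6 (20%) IGF2BP1-only. The bio2-only ones included HP (haptoglobin), CP (ceruloplasmin), AGT and AHSG, and the IGF2BP1-only ones A2M with 4 CDS sites, AFP, APOC1 and APOC2. This list had nearly as many bio2 as IGF2BP1 sites (82 and 83), with 61 and 57 in the CDS, much of it in APOB. Cholesterol and fatty acid metabolism had 21 of 29 genes (72.4%) with both, 4 bio2-only (CYP51A1 and NSDHL of sterol synthesis, ELOVL7 and the HDL receptor SCARB1) and 4 IGF2BP1-only (MSMO1, ACACA, ELOVL1 and MTTP). Glycolysis had 10 genes, 5 with both, 3 bio2-only (ENO1, LDHA and PGAM1) and 2 IGF2BP1-only (GPI and TPI1). Extracellular matrix and adhesion had 10 of 15 genes with both.

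Cytosolic ribosomal proteins were the list least often bound by both, with 4 of 24 genes. The 9 bio2-only genes included RPLP0, RPL3, RPL17 and RPL30, and the 11 IGF2BP1-only genes RPS29, RPL7L1, RPL14 and RPS19. The bio2 sites in this list were 8 of 16 in the CDS and the IGF2BP1 sites 3 of 51. Of the 51, 15 were those of RPS29, some of which lie in other annotated transcripts, as said above. Ribosomal protein genes also have many processed copies, so these counts are uncertain. Translation factors had 17 of 34 genes with both, 4 bio2-only (EIF1 with 2 sites) and 13 IGF2BP1-only (EIF2S3 with 3). Chaperones had 14 of 29 with both, 3 bio2-only (HSP90B1, HSPA8 and HSPE1) and 12 IGF2BP1-only (HSPA4L with 7 sites). The chaperone sites were 52.2% CDS for bio2 and 15.0% for IGF2BP1, against 34.5% and 20.1% over all genes.

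Among the gene lists in this paragraph, 1 stood above the background in the IGF2BP1-only class and the others lay near it. Some lists given after these lay below it, such as splicing factors (38.5%), cell cycle regulators (37.5%) and oncofetal genes and let-7 targets (33.3%). The few aminoacyl-tRNA synthetases lay above it (60%). ZNF zinc finger genes, a family of transcriptional repressors, had 121 genes, 76 (62.8%) IGF2BP1-only and 13 (10.7%) bio2-only, with 54 bio2 and 218 IGF2BP1 sites. MicroRNA and mRNA decay factors had 36 genes, 17 (47.2%) IGF2BP1-only, among them TNRC6B with 7 sites, AGO2 with 6 and AGO3 with 3, all in 3' UTRs. The 4 bio2-only ones were the decapping enzyme DCP2, the exonucleases XRN1 and XRN2 and the surveillance factor SMG5, with 1 site each. Chromatin regulators had 18 of 37 (48.6%) IGF2BP1-only, and here both sides lay mostly in the CDS, at 65.2% and 62.5%. Nuclear pore and transport genes had 14 with both, 13 IGF2BP1-only (NUP155 and XPOT with 4 sites each) and 0 bio2-only, and RAB GTPases and coat proteins had 21, 22 and 2. Insulin and IGF signalling had 9 genes with both, 10 IGF2BP1-only (GSK3B and SOS1 with 3 sites each) and 1 bio2-only (MTOR).

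The remaining lists are given by their counts. Splicing factors had 11 genes with both, 5 bio2-only and 10 IGF2BP1-only, cell cycle regulators 12, 3 and 9, and cytoskeleton and motors 10, 6 and 11. Respiratory chain genes had 8, 3 and 8, amino acid transporters 11, 2 and 6, and deubiquitinases and HECT ligases 12, 5 and 7. Genes of the translocon and glycosylation had 12, 2 and 10, aminoacyl-tRNA synthetases 2, 0 and 3, and histones 4, 2 and 2. Among oncofetal genes and let-7 targets, 10 had both, and IGF2BP1-only ones included HMGA1 with 8 sites. The counts per list are small and carry no test, and the direction of a list is not particular to it.

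**Figure D5:**
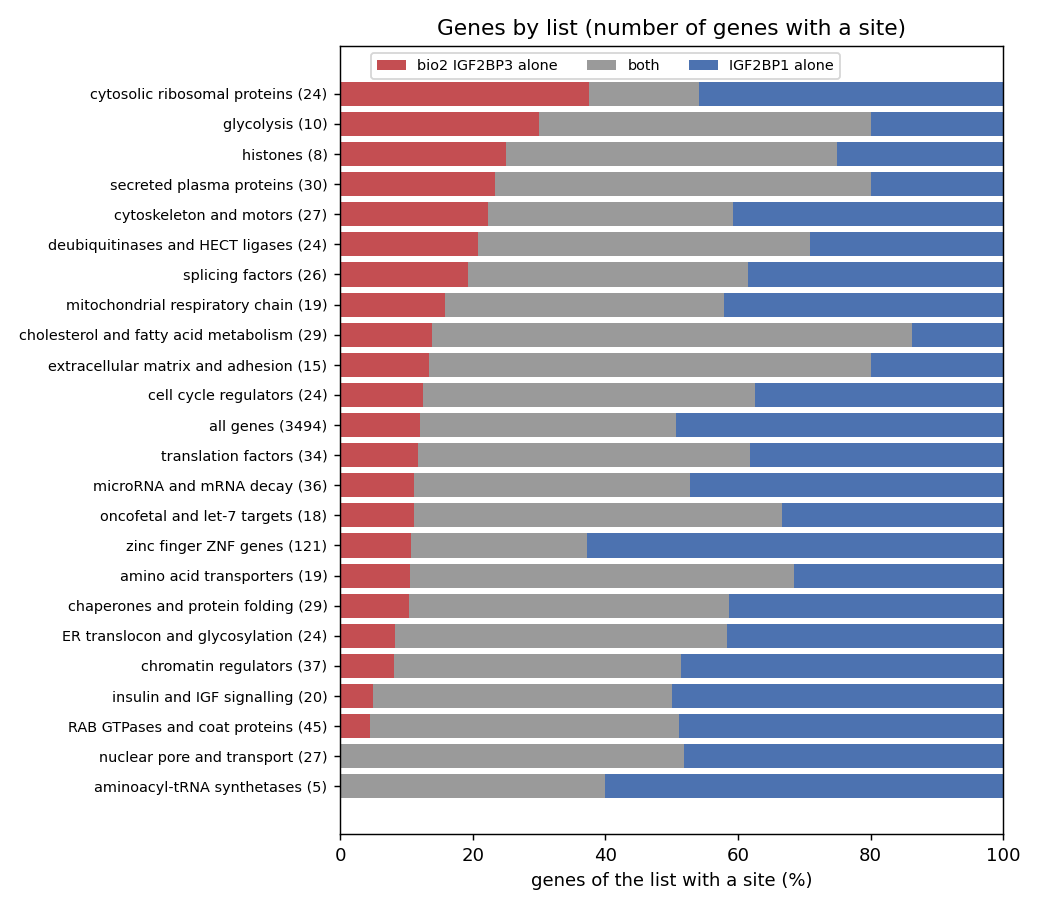
Share of genes (percent, horizontal axis) with sites of both sides, bio2 alone or IGF2BP1 alone, for each gene list and for all 3494 genes with a site. Secreted plasma proteins (17, 7 and 6 genes) and ZNF genes (32, 13 and 76) lie on opposite sides of the background of 38.6%, 12% and 49.4%.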

How the data were processed

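PAR-CLIP clusters of 12 libraries from HepG2 cells were used, 4 of them in the comparison. The deposited files list cluster intervals with strand and no score. Per the labels, the authors mapped reads with Bowtie to hg38. Per the study's methods, reads were collapsed, reads with a few genomic matches were kept, and PARalyzer called clusters separately in each library. Its settings are not given in the sources used here. Starts are 1-based. Clusters were assigned by their centre to GENCODE release 44 exons, and to RefSeq for tRNA, snRNA and rRNA. Sites needed both libraries of a side. Windows of 41 nt were read from hg38. Tests were exact permutations over libraries, and shares carry Wilson 95% intervals. Scripts used Python 3.11.15, pandas 2.3.3, scipy 1.17.1 and pysam 0.24.0, and 10 of 10 checks on simulated data passed.

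Genes were named by number of sites, by excess of a side, by list, or from a set of known targets. Members and lists were chosen with earlier results of these data known. Some genes covered by the rule are not reported here. Alternatives covered overlap, width, single-copy sequence, transcripts and single libraries.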

Additional observations from a re-analysis of the deposited data

How the results depend on the processing

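Of 146 alternatives over 14 results, 109 counted as unchanged. For region and motif shares and width this mostly required only the same sign, so sizes could differ. For shared and support percentages it required a value within the main Wilson interval. Among clusters of at least their library's median width, the CDS difference was 11.4 percentage points (9.03 over all). Those for the 3' UTR and CAUH were -2.99 (-7.25) and 18.2 (14.3). The signs turned for the bipartite element among single-copy clusters (0.0519 against -0.778 percentage points) and for the 5' UTR share with 1 transcript per gene (-0.0543) or with clusters wider than 20 nt (-0.0375), so neither has a settled direction. Counting a cluster of either library of the other side gave 62.3% of bio2 and 30.9% of IGF2BP1 sites shared. Touching no such cluster, the rule for the one-sided sites named in the text, gave first-batch support of 4.64% and 51.3%, against 10.4% and 54.2% for all sites not shared. Single-copy sites gave 22.5% of IGF2BP1 sites shared and 57.2% support of IGF2BP1-only sites. Clusters of at least their library's median width gave 34% and 13.7% of sites and 23.6% of genes shared, and 57.1% support. Width over 20 nt, chosen after seeing the data, gave 55.1% of bio2 sites shared, and mRNA exons alone, likewise, 60.8% and 24.1%. Leaving out 1 library gave 44.8% to 59.4% of bio2 sites, 16.9% to 26.7% of IGF2BP1 sites and 36.4% to 43.5% of genes shared, with support of 6.43% to 9.41% and 39.4% to 53.0%. The count of words not overlapping stayed within 1.5 times. With the replicate number as a block (2 pairs), differences are the main ones by construction, such as 9.03 percentage points in the CDS. The smallest exact p of the sign flips over pairs is 0.5. The numbers do not pair the libraries (r = 0.0010 over 23037 sites). Without read counts, depth limits cannot be given.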
